A study of Mus musculus with 2 samples.

Results

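The S100 genes code for small calcium-binding proteins, and 10 of them are described here: S100a1, S100a4, S100a6, S100a10, S100a11, S100a13, S100a14, S100a16, S100b and S100g. They were chosen by symbol from the 32285 genes of the count tables, which list 17 S100 genes in all, and leave out S100a8 and S100a9, whose proteins form calprotectin. The study compared lung cells of mice with a conditional loss of Cebpa in alveolar epithelial type II (AT2) cells with those of control mice, by droplet-based 3′ scRNA-Seq. Each captured molecule is tagged before PCR with a random barcode, the UMI, and a UMI is counted a single time however often it was copied. There was 1 library per genotype. The FF library came from Cebpa fl/fl mice, which carry the floxed allele and no Cre. The KO library came from Sftpc-CreER+ Cebpa fl/fl mice (Cebpa ΔSftpc), in which tamoxifen activates a Cre driven by the Sftpc promoter. The study used it to delete Cebpa in AT2 cells, and whether other lung cells also carried the deletion was not tested here. Tamoxifen was given on 5 days at 75 mg/kg, and lungs were taken 26 weeks after the first injection. The methods add a later round of weekly injections for mice analyzed as late as these. The methods give mixed genetic backgrounds, age-matched mice, an age of 3 months unless stated otherwise, and 3 mice per genotype. The barcodes do not tell these mice apart, so each genotype was 1 sample, no test between genotypes was possible, and intervals given here cover counting error only. A difference between the libraries cannot be told apart from a difference between these pools of mice or between 2 library preparations.

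S100 proteins work mostly as pairs. In most members calcium opens a hydrophobic face on each subunit, with which the pair binds a target protein. Targets include annexins, cytoskeletal proteins and enzymes. Some members are also released from cells and bind receptors such as RAGE, the product of Ager. S100g is an exception in the family, a calcium buffer known as calbindin-D9k. In the lung, members of this family mark quite different cells, from flat alveolar type I (AT1) cells to monocytes and Schwann cells.

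Of the genes, 8 lie on mouse chromosome 3, which for S100a1 means chr3:90511034-90514392 on the minus strand of GRCm38. S100a13 begins at position 90514435 on the plus strand, so these genes start back to back. S100b lies at chr10:76253853-76261159 on the plus strand, and S100g at chrX:162961992-162964599 on the minus strand. S100a4 overlaps the transcript model Gm42674 on its own strand, and its reads could be split with that model. In RefSeq, S100a1 starts at position 90514330, so the stretch between the genes is longer there. The 42 bases between the starts of S100a1 and S100a13 annotated on GRCm38, chr3:90514393-90514434 on the plus strand, are shown:
S100a1 to S100a13: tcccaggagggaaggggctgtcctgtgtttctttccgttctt
The 250 bases before the RefSeq start are shown for 3 members, in capitals where a searched motif was found. S100g is shown as the member most restricted to 1 cell type, S100a4 as the member that was higher in the most types of the KO library, and S100a11 as a member held in common by many types. They lie at chrX:162964600-162964849 on the minus strand, chr3:90603520-90603769 on the plus strand and chr3:93520246-93520495 on the plus strand of GRCm38.p6:
S100g: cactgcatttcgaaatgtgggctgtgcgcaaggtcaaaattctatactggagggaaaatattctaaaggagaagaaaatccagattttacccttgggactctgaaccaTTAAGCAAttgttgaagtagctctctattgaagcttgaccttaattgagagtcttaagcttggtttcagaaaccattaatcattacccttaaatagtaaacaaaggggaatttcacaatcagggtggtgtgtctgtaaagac
S100a4: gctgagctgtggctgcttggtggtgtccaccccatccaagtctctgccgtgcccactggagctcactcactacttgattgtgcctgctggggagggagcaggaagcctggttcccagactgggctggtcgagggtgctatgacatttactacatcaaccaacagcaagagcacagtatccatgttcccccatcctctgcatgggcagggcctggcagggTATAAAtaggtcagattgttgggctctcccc
S100a11: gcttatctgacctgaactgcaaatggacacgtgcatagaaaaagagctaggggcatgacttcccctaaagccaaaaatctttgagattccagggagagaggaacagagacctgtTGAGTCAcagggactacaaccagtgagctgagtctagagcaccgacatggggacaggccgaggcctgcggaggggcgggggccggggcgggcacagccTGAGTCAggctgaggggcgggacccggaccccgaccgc
Of the 10 members, 8 had a promoter entry, and these windows were searched on both strands for the core promoter motif TATAAA, for TTGCNNAA (letters of a C/EBP type site) and for TGANTCA (letters of an AP-1 type site). No match overlapped another. In S100a4, TATAAA stood 31 to 26 bases before the start. In S100g, the only match was TTAAGCAA, which is TTGCNNAA on the other strand, at 142 to 135 bases before the start. S100a11 held TGAGTCA at 136 to 130 and at 38 to 32 bases, and 1 of 2 windows of S100a16 held TGAATCA. Over all 32851 windows of the table, 12.4% held TATAAA, 9.56% TTGCNNAA and 6.75% TGANTCA. These matches are letters in a window and say nothing of a bound factor.

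After filtering, the FF library held 11487 cells and the KO library 13238, with 68802017 and 64452208 UMIs and a median of 4835 and 2607 UMIs per cell. Cells were assigned to types by the counts of marker genes, none of them an S100 gene, and 24 types of the FF library and 28 of the KO library held at least 10 cells. AT2 cells were much shallower in the KO library, at a median of 1649 UMIs in 248 cells against 20917 in 417 cells. The FF library held few immune cells, among them 2 neutrophils, 4 alveolar macrophages and 14 classical monocytes, against 453, 747 and 239 in the KO library, so neutrophils and alveolar macrophages have no FF level and that of classical monocytes rests on few cells. Cebpa itself stood in AT2 cells at 154.5 CPM (146 to 163) in the FF and 127.3 CPM (110 to 147) in the KO library. A UMI of it was seen in 87.1% and 30.2% of these cells, and in 90.2% and 67.1% of those with at least 3000 UMIs. The study reported lower Cebpa in such KO lungs by immunostaining, qPCR and Western blot at an earlier time, and less Cebpa staining in lineage-traced cells of other mice. Whether the counted 3′ end of Cebpa lies in the deleted part is not given in the sources used here. These counts therefore do not measure the deletion, and the libraries are called by their labels. The libraries shared 44 barcodes among the cells kept. Calprotectin RNA, an abundant product of neutrophils, was present in every type of the KO library: the summed level of S100a8 and S100a9 lay between 162 and 11002 CPM in the 25 types other than neutrophils with at least 20 cells, with a median of 468 CPM, and between 0 and 17.5 CPM in the 20 types of the FF library.

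Levels are CPM, the UMIs of a gene in every 1000000 UMIs of a cell type, with the 95% counting interval in brackets. They are not divided by gene length, because 1 molecule is counted once from its 3′ end. The 10 members together took 10841 CPM in AT1 cells of the FF library and 8605 CPM in those of the KO library, of which S100a6 held 70.6% and 63.8%. Neutrophils of the KO library were higher still at 12741 CPM. The lowest sum was in erythroid cells, at 213 and 743 CPM.

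**Figure D1:**
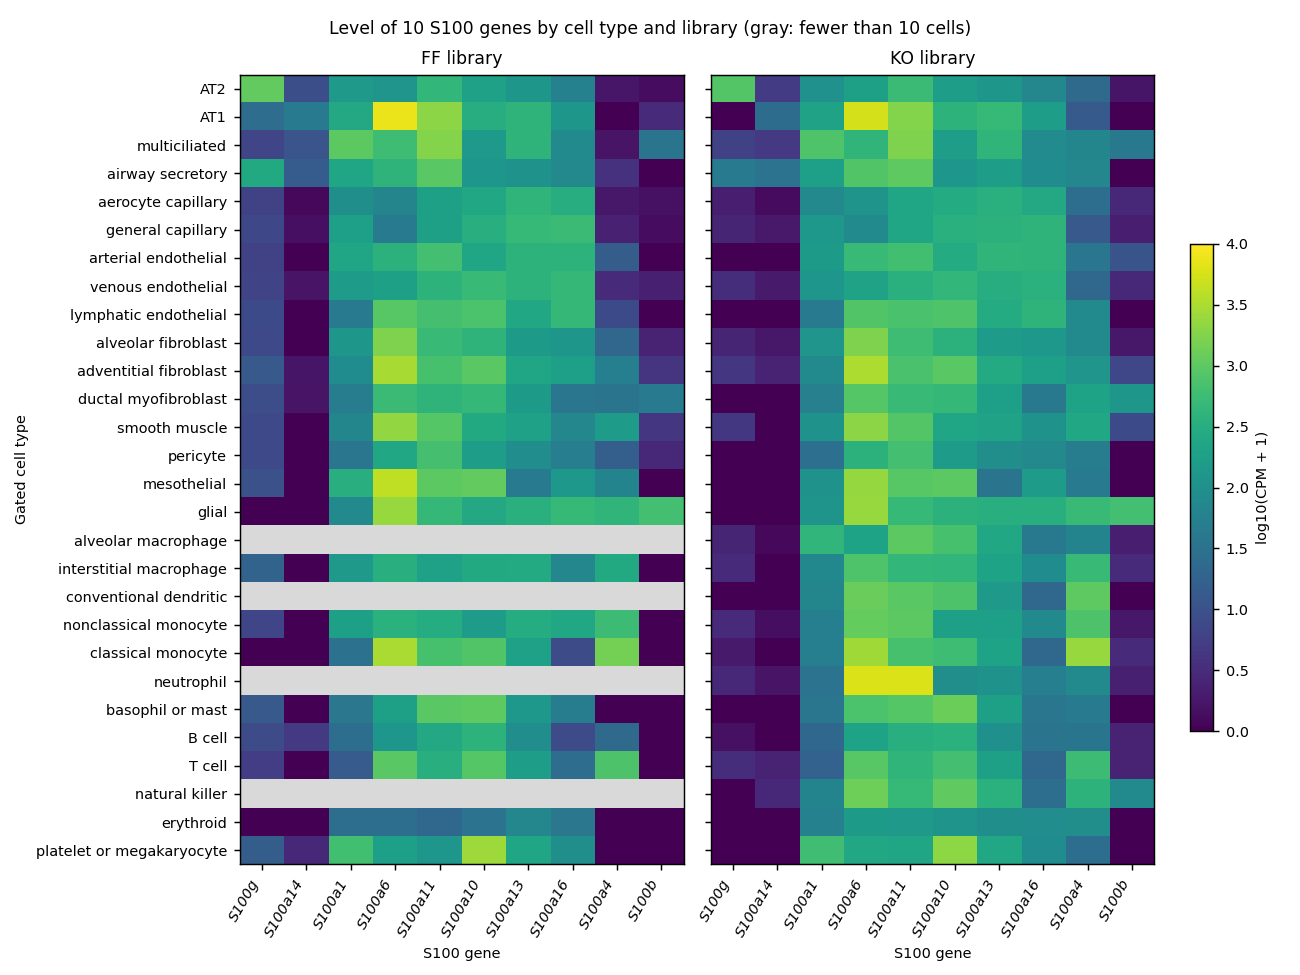
Level of each member (columns) in each gated cell type (rows) as log10 of CPM plus 1 by color, with the FF library on the left and the KO library on the right, and gray where a type had fewer than 10 cells. S100g is bright in AT2 cells (1092 and 841 CPM), S100b in glial cells (640 and 629 CPM), and S100a6 in AT1 cells, adventitial fibroblasts and KO neutrophils.

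S100g, the calcium buffer calbindin-D9k, was an AT2 gene in these lungs. It stood in AT2 cells at 1092 CPM (1070 to 1115) in the FF and 841 CPM (794 to 889) in the KO library. Epithelial cells held 89.6% and 83.2% of all its UMIs, beside 18.6% and 4.85% of all UMIs. Over all cells kept, its level was 152 CPM in the FF and 23.4 CPM in the KO library. AT2 cells were 3.63% and 1.87% of the cells, and held 8373477 of 68802017 and 1445405 of 64452208 UMIs. Within AT2 cells the difference was smaller, a log2 ratio of KO over FF of -0.38 (-0.47 to -0.29). Among AT2 cells with at least 3000 UMIs, 398 in the FF and 76 in the KO library, S100g stood at 1092 and 890 CPM, and 98.2% and 80.3% of these cells had a UMI of it. The 172 shallower KO cells stood at 598 CPM and the 19 shallower FF cells at 1027 CPM. In aerocyte capillary cells, which should not express it, 3.27% and 0.535% of cells had one. The KO level was uneven, since 1 cell held 155 of the 1215 UMIs. S100g therefore remained the member with the highest level in AT2 cells of both libraries.

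In airway secretory cells S100g was second highest, at 270 CPM in the FF and 45.1 CPM in the KO library, a log2 ratio of -2.58 (-3.15 to -2.06). Those UMIs came from few cells, 15 of 55 in the FF and 5 of 106 in the KO library. Each of the 15 and each of the 5 also carried a UMI of an AT2 gate marker (Lamp3, Slc34a2, Abca3 or Etv5). So did 21 of the 40 FF and 22 of the 101 KO airway secretory cells without S100g. Without the cells scored highest as doublets, the ratio turned to 0.84. In aerocyte capillary cells, general capillary cells and adventitial fibroblasts the gene stood at 5.09, 6.46 and 12.0 CPM in the FF library, and at 1.14, 1.61 and 3.25 CPM in the KO library. These 3 levels fell to 0.443 CPM or less in each library when the library's summed profile was subtracted as free RNA.

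S100a6, or calcyclin, had the highest level of any member in a gated cell type of the FF library. It stood at 7654 CPM (7413 to 7900) in AT1 cells, and 102 of 104 of these cells carried it. In the KO library AT1 cells were at 5492 CPM (4991 to 6029), with 27 of 28 cells, a log2 ratio of -0.48 (-0.62 to -0.34). KO neutrophils were above them at 6158 CPM (6038 to 6280). Next came the mesenchymal cells and monocytes. Adventitial fibroblasts stood at 3019 and 3205 CPM in the FF and KO library, classical monocytes at 3087 and 2650 CPM, glial cells at 2444 and 2402 CPM, smooth muscle at 2235 and 2045 CPM, and alveolar fibroblasts at 1705 and 1700 CPM. In the FF library the intervals of classical monocytes and adventitial fibroblasts overlapped, as did those of glial cells and smooth muscle, whereas AT1 cells stood clear of mesothelial cells at 4098 CPM (3731 to 4492). The gene was nearly missing from capillary cells, at 65.0 and 45.5 CPM in the aerocyte and general capillary cells of the FF library.

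S100a11, which binds annexin A1, shared the leading place of AT1 cells and neutrophils, and added the airway. It stood at 2025 CPM (1902 to 2153) in AT1 and 1796 CPM (1750 to 1843) in multiciliated cells of the FF library, and at 1831 CPM (1547 to 2152) and 1698 CPM (1610 to 1790) in the KO library. Airway secretory cells stood at 958 and 1019 CPM, with mesothelial cells and basophils or mast cells slightly above them in the FF library. Neutrophils of the KO library were at 6209 CPM (6088 to 6331), so S100a6 and S100a11 had nearly the same level in these cells.

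S100a10, the partner of annexin A2 at the cell membrane, was highest in platelets but present in many types. Endothelial cells held 48.7% of its UMIs in the FF and 33.4% in the KO library, beside 54.9% and 42.4% of all UMIs. Erythroid cells and platelets together held 5.69% and 3.31%, beside 1.10% and 1.31% of all UMIs. General capillary cells stood at 330 and 347 CPM. Platelets and megakaryocytes stood at 2552 CPM (2422 to 2686) in the FF and 2096 CPM (1960 to 2240) in the KO library, well above the next type in the FF library, mesothelial cells at 1085 CPM (900.4 to 1297). Basophils or mast cells were at 1010 and 1285 CPM, adventitial fibroblasts at 946 and 959 CPM, T cells at 871 and 643 CPM, and natural killer cells of the KO library at 1050 CPM. In the FF library the levels from mesothelial cells to classical monocytes, at 821 CPM, had overlapping intervals.

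S100a1, known best from heart and skeletal muscle, was highest in multiciliated cells, at 968 CPM (935 to 1003) in the FF and 780 CPM (721 to 843) in the KO library. Platelets and megakaryocytes came next at 615 CPM (552 to 683) and 583 CPM (512 to 661). Alveolar macrophages of the KO library followed at 426 CPM (408 to 444), and these 747 cells held 24.8% of all S100a1 UMIs of that library. Of these macrophages, 390 carried a UMI and 59 carried 10 or more.

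S100a16 was highest in endothelium and glial cells, while S100a13 was spread more widely. Endothelial cells, with 54.9% of all UMIs in the FF and 42.4% in the KO library, held 81.7% of S100a16 UMIs and 71.5% of S100a13 UMIs in the FF library, and 69.6% and 54.3% in the KO library. General capillary cells stood at 541 CPM of S100a16 in the FF and 402 CPM in the KO library, lymphatic cells at 469 and 394 CPM, and venous cells at 452 and 356 CPM. For S100a13, whose product takes part in the release of FGF1, general capillary cells were at 475 and 377 CPM, aerocyte capillary cells at 419 and 351 CPM, multiciliated cells at 403 and 410 CPM, and AT1 cells at 397 and 486 CPM. Neither gene had a single leading type: in the KO library the first 7 types of S100a13 had intervals that overlapped their neighbors.

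S100a4, a partner of nonmuscle myosin that is also known as fibroblast-specific protein, was highest in classical monocytes. Immune cells held 46.6% of its UMIs in the FF and 77.9% in the KO library, beside 1.72% and 28.9% of all UMIs. Mesenchymal cells held 39.8% and 5.0% of its UMIs, beside 16.3% and 7.76% of all UMIs. Classical monocytes stood at 1453 CPM (1255 to 1673) in the FF and 2415 CPM (2348 to 2483) in the KO library. B cells were low at 22.8 and 35.4 CPM. T cells were at 754 and 543 CPM, nonclassical monocytes at 550 and 773 CPM, interstitial macrophages at 263 and 520 CPM, and conventional dendritic cells of the KO library at 1012 CPM. Among fibroblasts the adventitial ones led in the FF library, at 53.1 CPM. Smooth muscle, at 155 and 250 CPM, was above each of the 3 fibroblast types in both libraries.

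S100b, a glial protein that RAGE can bind, was high in glial cells and present in a pair of other types. Glial cells stood at 640 CPM (483 to 831) and 629 CPM (466 to 832) on 17 and 13 cells. Ductal myofibroblasts were at 43.5 CPM in the FF and 129 CPM in the KO library, and multiciliated cells at 33.6 and 40.1 CPM. A level of 78.4 CPM in natural killer cells of the KO library came from 41 UMIs in 1 cell. Airway secretory cells held 0 UMIs in both libraries, where 3 counts would be 4.13 and 3.86 CPM.

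S100a14, an epithelial member, was the rarest, with 167 UMIs in the FF and 144 in the KO library. AT1 cells stood at 41.9 CPM (25.9 to 64.0) in the FF library, followed by airway secretory cells at 13.8 CPM, multiciliated cells at 10.3 CPM and AT2 cells at 8.0 CPM, whose intervals overlapped. In the KO library 69 of the 144 UMIs lay in 11 of the 1881 cells outside all gates, and 5 of these cells held 63 of them. Of the 11 cells, 7 carried an AT1 gate marker, as did 181 of the 1870 other cells outside all gates. A look at the basal keratins Krt5, Krt14 and Krt15, chosen after the values were seen, found them in 2 of the 11 and in 8 of the 1870.

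**Figure D2:**
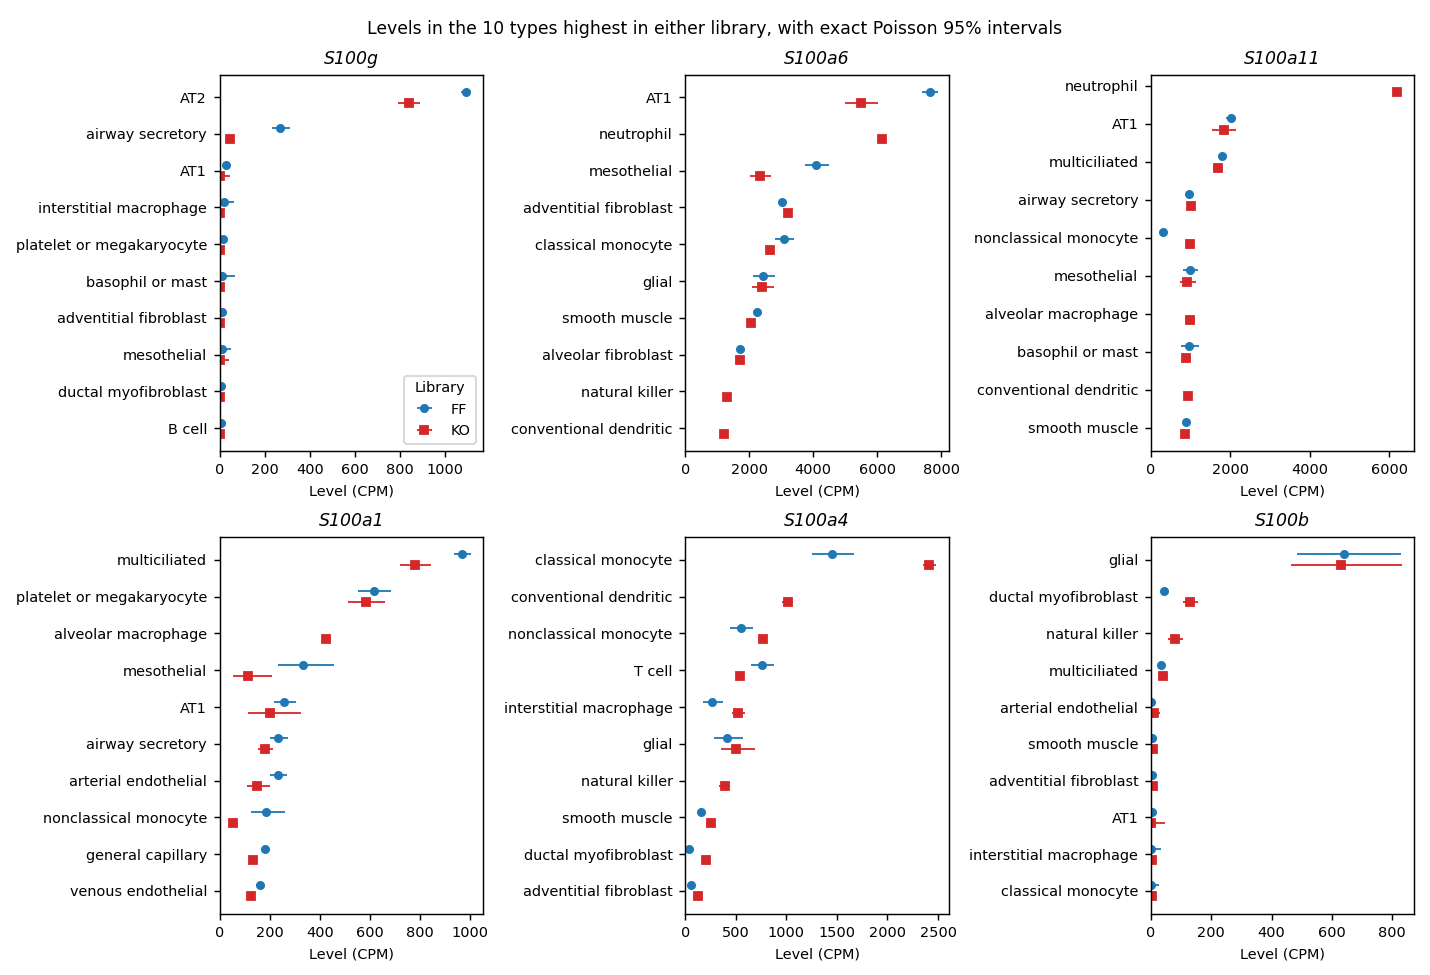
CPM of S100g, S100a6, S100a11, S100a1, S100a4 and S100b on the horizontal axis in the 10 cell types with the highest level in either library, with the FF library as blue circles, the KO library as red squares and 95% counting intervals as bars. S100g and S100b each stand out in 1 type (AT2 cells at 1092 and 841 CPM, glial cells at 640 and 629 CPM), while S100a6 steps down from AT1 cells through fibroblasts.

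The levels of the members were also compared between the libraries in the 20 types with at least 20 cells in each. A member was taken up in a type when it had at least 50 UMIs there over both libraries, which gave 135 pairs of member and type: 20 types each for S100a6, S100a10, S100a11 and S100a13, 19 for S100a16, 15 for S100a1, 13 for S100a4, 5 for S100g, 2 for S100b and 1 for S100a14. Of these, 18 were at least 2-fold higher in the KO library (13.3%) and 6 at least 2-fold lower (4.44%), and 111 lay within 2-fold. Among all 120599 pairs of gene and type counted alike, 4.36% were higher and 2.05% lower by this rule. The filter on 50 UMIs can be passed through 1 library alone. A fold of 2 is a description, since 1 library per genotype allows no test. The share of genes past 2-fold differed between types, which is the background for the members in each. In the epithelium, 4.82% of genes were higher and 0.958% lower in AT2 cells, 4.57% and 8.59% in AT1 cells, 3.55% and 1.42% in multiciliated cells, and 5.08% and 6.76% in airway secretory cells. In the endothelium it was 4.66% and 0.472% in aerocyte capillary, 3.74% and 1.18% in general capillary, 1.78% and 2.73% in arterial, 1.0% and 0.641% in venous, and 1.43% and 1.72% in lymphatic cells. In the mesenchyme it was 2.30% and 1.13% in alveolar fibroblasts, 2.37% and 0.818% in adventitial fibroblasts, 2.32% and 1.55% in ductal myofibroblasts, 3.03% and 2.55% in smooth muscle, and 1.60% and 3.86% in pericytes. No pair with at least 50 UMIs was past 2-fold in AT2, AT1, arterial, lymphatic, smooth muscle, pericyte, T or platelet cells. For T cells the background was 6.76% and 2.12%, for B cells 8.27% and 0.810%, and for platelets 2.24% and 1.33%. Without erythroid cells, where most genes were higher and 0.496% lower, 15 of 131 pairs of the members were higher and 6 lower, beside 4.0% and 2.06% of all pairs.

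**Figure D3:**
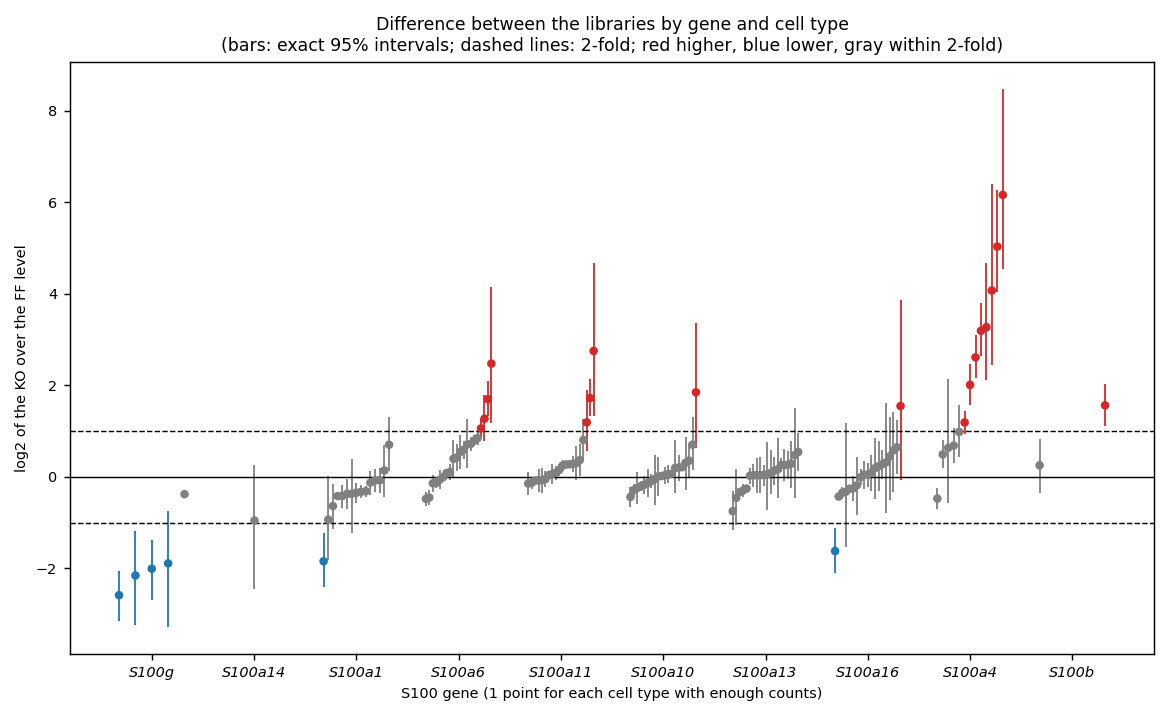
Log2 ratio of the KO over the FF level on the vertical axis for each member, with 1 point for each cell type counted, 95% counting intervals as bars and dashed lines at 2-fold (red higher, blue lower, gray within). S100a4 lies above 0 in most types (median 2.01 over 13 types), while S100a10 and S100a13 lie near 0 (medians 0.03 and 0.05 over 20 types).

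S100a4 made up 8 of the 18 higher pairs. In multiciliated cells it had 2 UMIs in the FF and 55 in the KO library (0.622 and 66.8 CPM), a log2 ratio of 6.16 (4.54 to 8.48) with the FF count raised to 3. In airway secretory cells it went from 2 to 54 UMIs, 2.76 to 69.5 CPM, a log2 ratio of 4.07 (2.45 to 6.39). It was higher in 3 endothelial types too: 0.815 against 26.6 CPM in aerocyte capillary, 1.34 against 12.2 CPM in general capillary and 2.15 against 20.7 CPM in venous cells, with log2 ratios of 5.03, 3.19 and 3.27. Among mesenchymal cells, ductal myofibroblasts rose most in level, from 33.8 to 207 CPM, a log2 ratio of 2.61 (2.16 to 3.09), and alveolar and adventitial fibroblasts had ratios of 2.01 and 1.19. In these 8 types between 1.0% (venous cells) and 5.08% (airway secretory cells) of all genes counted were at least 2-fold higher.

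Cells that express S100a4 strongly were far more numerous in the KO library, and the gene stood at 17.2 CPM over all FF cells and 212 CPM over all KO cells. The gate markers of classical monocytes (Ccr2, Ly6c2, F13a1 and Vcan) moved with it in some of these types and not in others. Their summed level was 3.97 and 27.2 CPM in aerocyte capillary cells, 5.0 and 19.2 CPM in general capillary cells, and 2.49 and 43.7 CPM in multiciliated cells. The ratio of S100a4 to these markers in KO classical monocytes was applied to their whole KO level, including the part seen in FF cells. By this, 21.8 CPM of S100a4 would go with them in aerocyte capillary cells, where S100a4 differed by 25.8 CPM. The amounts were 15.4 CPM in general capillary cells (difference 10.9 CPM) and 35.0 CPM in multiciliated cells (difference 66.1 CPM). In alveolar fibroblasts the markers were level at 73.7 and 73.2 CPM while S100a4 differed by 61.1 CPM. At the monocyte ratio 58.6 CPM would go with the KO level, but the FF level was as high, so the markers give no such comparison. In airway secretory cells the markers stood at 17.9 and 30.9 CPM. There 24.7 CPM would go with the KO level, and S100a4 differed by 66.8 CPM. With the library profile subtracted as free RNA, and CPM still taken over the totals before subtraction, the level was 0 against 0.748 CPM in aerocyte and 0.262 against 0 CPM in general capillary cells, too little for a ratio. The log2 ratio was 1.497 in alveolar and 0.85 in adventitial fibroblasts and 2.49 in ductal myofibroblasts. Venous cells kept only 1.32 and 2.90 CPM, a ratio of 1.14 on few counts. Multiciliated cells kept 0 and 32.7 CPM, and airway secretory cells 1.23 and 44.6 CPM. Their ratios of 5.13 and 3.43 were taken with the FF count raised to 3. Ductal myofibroblasts had 179 CPM of the monocyte markers in the FF library as well, all of it Vcan, so the markers give no such comparison there. The summed level of the immune markers Ptprc, Coro1a, Laptm5 and Tyrobp in these myofibroblasts was 1.95 CPM in the FF and 137 CPM in the KO library. Over all types with at least 20 cells, the median was 6.78 CPM in the FF and 260 CPM in the KO library. The lowest KO type stood at 115 CPM. The part of these markers in the result was not tested.

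In ductal myofibroblasts the UMIs of S100a4 lay in 20 of 263 FF cells and 37 of 161 KO cells, and the highest cell held 10 of 52 and 36 of 167 UMIs. When each cell was thinned to 1000 UMIs, 2.29% (0.845 to 4.92) of the FF and 9.46% (5.27 to 15.4) of the KO cells had one, and 0.138% and 5.08% of aerocyte capillary cells, which carry little of the gene. Below the minimum of 50 UMIs, S100a4 had 6 and 33 UMIs in AT2 cells, 0.717 and 22.8 CPM, a log2 ratio of 4.99 (3.72 to 6.54). The KO level there was 8.34 CPM in cells with at least 3000 UMIs and 93.5 CPM in shallower cells, and 0 in both libraries after subtraction of free RNA. It had 5 and 32 UMIs in lymphatic cells (log2 ratio 3.49), 16 and 10 in pericytes (1.63) and 11 and 11 in arterial cells (1.36). In the compared types where S100a4 was strongest, its ratio was smaller than in the types past 2-fold. Its difference in CPM was larger there. The log2 ratio was -0.47 in T cells, 0.49 in nonclassical monocytes and 0.98 in interstitial macrophages, and KO minus FF was -211, 223 and 257 CPM. Classical monocytes, the highest type, had too few FF cells to be compared. In nonclassical monocytes of the FF library, 1 of 31 cells held 57 of the 95 UMIs. Of the FF T cells, 5 of 28 held 149 of 175 UMIs, and 4 of 25 FF interstitial macrophages held all 30.

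S100b was higher in ductal myofibroblasts, as S100a4 was. It had 67 UMIs in 34 of 263 FF cells and 104 UMIs in 40 of 161 KO cells, 43.5 CPM (33.7 to 55.3) against 129 CPM (105 to 156), a log2 ratio of 1.56 (1.11 to 2.03), in a type where 2.32% of genes were at least 2-fold higher. The highest cell held 8 and 14 UMIs. After thinning, 2.67% (1.08 to 5.43) and 10.1% (5.78 to 16.2) of cells had a UMI. Glial gate markers were seen in 4 of the 34 and 3 of the 40 cells with S100b and in 12 of the 229 and 2 of the 121 cells without it, and Sox10 was at 0 in the type in both libraries. Each of the 34 and 40 cells carried Hhip, which is also a gate marker of the type. The ratio stayed between 1.52 and 2.27 under the 11 alternatives run. In multiciliated cells S100b did not differ beyond its counting interval, at a log2 ratio of 0.25 (-0.35 to 0.83).

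S100a6 and S100a11 were higher together in nonclassical monocytes and interstitial macrophages. In nonclassical monocytes S100a6 stood at 353 CPM on 31 cells in the FF and 1147 CPM on 346 cells in the KO library, a log2 ratio of 1.70 (1.33 to 2.09), and S100a11 at 301 and 993 CPM, a ratio of 1.72 (1.33 to 2.15), where 10.4% of genes were at least 2-fold higher. In interstitial macrophages S100a6 stood at 325 and 785 CPM, a ratio of 1.27 (0.78 to 1.80), and S100a11 at 193 and 441 CPM, a ratio of 1.19 (0.56 to 1.89), where 10.2% of genes were higher and 2.42% lower. The FF levels rest on 61 and 52 UMIs and on 37 and 22 UMIs. For each gene, the 5 highest of the 31 FF nonclassical monocytes held 55 of the 61 and 38 of the 52 UMIs. The 5 highest of the 25 FF interstitial macrophages held 33 of the 37 and 13 of the 22 UMIs. The counting intervals do not cover such differences between cells.

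Neutrophils carry both genes at a high level, and calprotectin RNA was widespread in the KO library. Nonclassical monocytes of that library had 11002 CPM of calprotectin RNA, against 5.79 CPM in the FF library, and 5 of 5 neutrophil gate markers at a sum of 1421 CPM, against 1 of 5 at 17.4 CPM. In the ratio seen in neutrophils, 501 CPM of S100a6 and 505 CPM of S100a11 would go with that calprotectin, where the differences were 794 and 692 CPM. In interstitial macrophages, with calprotectin RNA at 0 and 2630 CPM, it would be 120 CPM of S100a6 and 121 CPM of S100a11, where the differences were 460 and 248 CPM. After subtraction of free RNA, with CPM over the totals before it, the ratios were 1.72 and 1.73 in nonclassical monocytes. In interstitial macrophages they were 1.03 and 0.76 by this scaling. With CPM over the totals left after subtraction, S100a11 stayed past 2-fold there, as in each of the 10 alternatives run (lowest ratio 1.01). The part of neutrophil RNA in what is left was not tested.

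**Figure D4:**
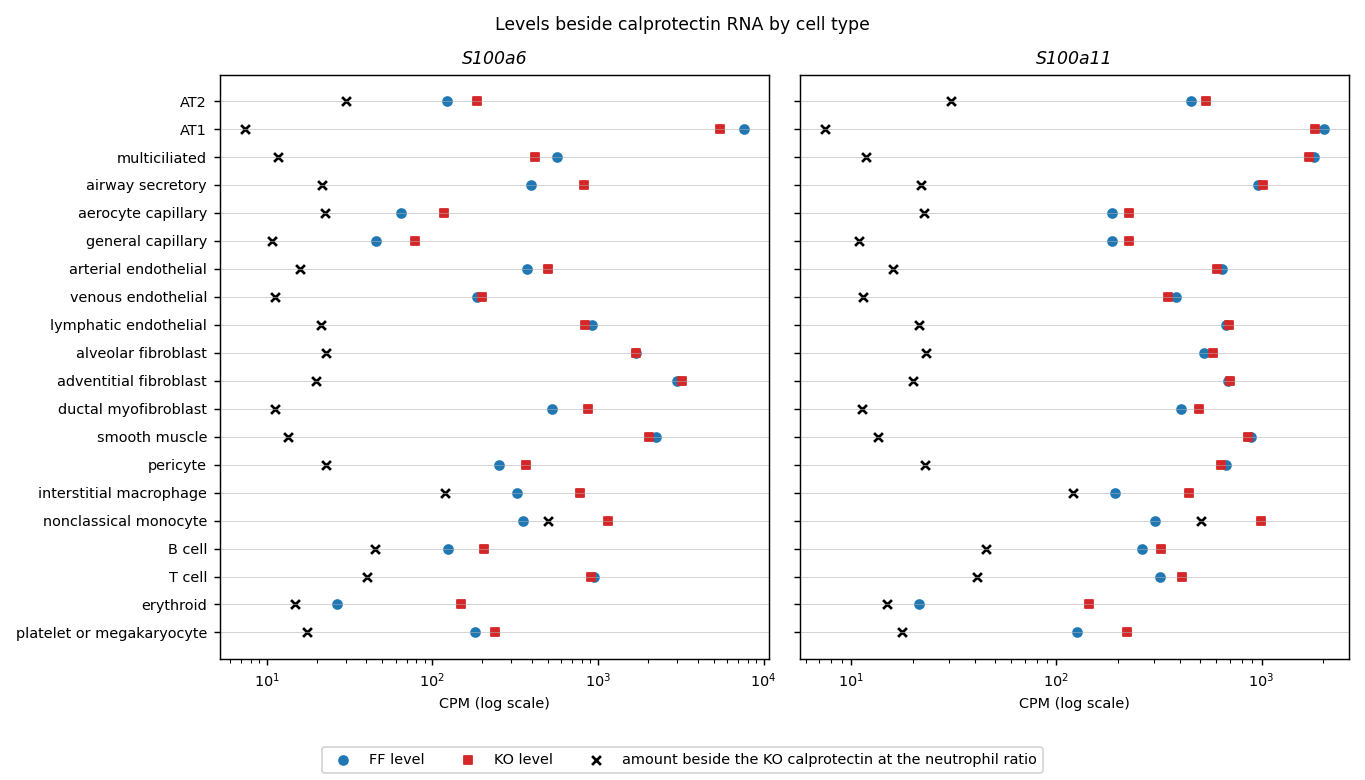
CPM of S100a6 (left) and S100a11 (right) in 20 cell types on a log axis, in the FF library (circles) and the KO library (squares), with the amount that would go with the KO calprotectin RNA at the neutrophil ratio (crosses). The crosses lie well below the levels in most types and come nearest in nonclassical monocytes, at 501 and 505 CPM.

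S100a6 was also higher in airway secretory cells, at 393 CPM in the FF and 819 CPM in the KO library, a log2 ratio of 1.06 (0.86 to 1.27). Calprotectin RNA stood there at 0 and 478 CPM and the neutrophil gate markers at 5.51 and 75.9 CPM, and in the neutrophil ratio 21.7 CPM of S100a6 would go with that calprotectin. Only 1 cell in each library decided much of this, with 117 of the 285 FF and 335 of the 636 KO UMIs. In AT2 cells S100a6 stood at 123 and 185 CPM, a ratio of 0.59 (0.40 to 0.79), and in cells with at least 3000 UMIs at 123 and 158 CPM, while the 172 shallower KO cells were at 321 CPM. Calprotectin RNA stood at 1.43 and 666 CPM in AT2 cells, and with free RNA subtracted the ratio of S100a6 was 0.05. The highest members in AT2 cells after S100g differed little, with S100a11 at 452 and 538 CPM.

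In erythroid cells S100a6, S100a10 and S100a11 were higher in the KO library, at 26.6 and 148 CPM, 31.98 and 115 CPM, and 21.3 and 144 CPM. They did as most genes did there: 76.5% of the 605 genes counted were at least 2-fold higher, with a median log2 ratio of 1.48, and the FF levels rest on 5, 6 and 4 UMIs. Calprotectin RNA stood there at 0 and 325 CPM. Why most genes were higher there was not tested, and the members are best read against that median. Scaled by the median of ratios, S100a10 was no longer 2-fold higher, at 0.38.

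The 6 lower pairs were 4 of S100g, described above, and those of S100a1 and S100a16 in nonclassical monocytes. S100a1 stood there at 185 and 51.6 CPM, a log2 ratio of -1.84 (-2.41 to -1.23), and S100a16 at 249 and 81.0 CPM, a ratio of -1.62 (-2.10 to -1.11), where 9.46% of genes were at least 2-fold lower. S100a16 is led by endothelium, and the summed level of the endothelial markers Pecam1, Cdh5, Cldn5 and Egfl7 in these monocytes was 4432 CPM in the FF and 2212 CPM in the KO library. Nearly all of these monocytes carried such a marker, with or without S100a16 (14 of 14 and 15 of 17 FF cells, 100 of 101 and 233 of 245 KO cells). Of the 32 FF UMIs of S100a1, 14 lay in 1 cell, and 18 lay in the 13 cells that also carried such a marker. In the KO library 119 of the 123 UMIs of S100a1 lay in cells with such a marker. The part of these markers in the result was not tested. For the S100g pairs, 6.76% of genes were at least 2-fold lower in airway secretory cells, 0.472% in aerocyte capillary cells, 1.18% in general capillary cells and 0.818% in adventitial fibroblasts. S100a16 in B cells, the last of the higher pairs, rests on 2 UMIs in the FF and 65 in the KO library, and its interval of -0.06 to 3.86 includes 0, where 8.27% of genes were higher.

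Within 2-fold, capillary and venous cells were slightly lower in both endothelial members. S100a16 had log2 ratios of -0.26 in aerocyte capillary, -0.43 in general capillary and -0.34 in venous cells, and S100a13 of -0.26, -0.33 and -0.30, each with an interval below 0. Arterial cells were at 0.05 and 0.14 and lymphatic cells at -0.25 and 0.26, with intervals that included 0. S100a1 had a median ratio of -0.34 over 15 types (-1.84 to 0.70), with -0.31 in multiciliated cells and -0.42 in general capillary cells. S100a10 in platelets had a ratio of -0.28, and in T cells of -0.44. Of all 135 pairs, 70 had an interval that left out 0. The intervals cover counting error only, and the share over all genes is not given beside this count. It is therefore no result about the members.

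The partner proteins were looked at in the same 20 types. Of the 5 annexin genes, 6 of 93 pairs were at least 2-fold higher and 1 lower in the KO library, or 4 of 91 and 1 of 91 without erythroid cells, beside 4.0% and 2.06% of all pairs of gene and type. Anxa1, the partner of S100a11, was highest in AT1 cells at 1043 and 847 CPM and in multiciliated cells at 957 and 844 CPM, where S100a11 led in the FF library. It was higher in nonclassical monocytes, where its FF level rests on 3 UMIs (17.4 against 202 CPM), in aerocyte capillary cells (9.77 against 27.6 CPM) and in T cells (17.2 against 48.2 CPM). Anxa2, the partner of S100a10, was 96.6 against 310 CPM in interstitial macrophages. Ahnak, a large protein that S100a10 and Anxa2 hold at the membrane, was highest in AT1 cells at 2150 and 2242 CPM. Ahnak, Cacybp and Sugt1, both partners of S100a6, and Myh9, the nonmuscle myosin that S100a4 binds, gave 4 of 75 pairs that were higher, 2 of them in erythroid cells, and none lower. Of all pairs of gene and type, erythroid cells included, 4.36% were higher and 2.05% lower. Myh9 and S100a10 shared platelets as leading type, with Myh9 at 2193 and 2140 CPM.

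Of the receptors, Ager stood at 17681 CPM in AT1 cells of the FF library and 9526 CPM in those of the KO library, far above AT2 cells at 738 and 649 CPM, but Ager is a gate marker of AT1 cells. Bsg, a receptor of S100a9, was lower in AT1 cells, at 1518 and 585 CPM, a log2 ratio of -1.37 (-1.83 to -0.95), where 8.59% of genes were at least 2-fold lower. Tlr4 was low, at no more than 56.2 CPM in a type. The calmodulin genes, whose product senses calcium in every cell, lay within 2-fold in 57 of 59 pairs, and both exceptions were in erythroid cells. Among all pairs of gene and type, 4.36% were higher and 2.05% lower, so this count is no result about calmodulin. A list of 7 other genes, namely S100a3, S100a5, S100a7a, S100a8, S100a9, S100z and S100pbp, gave 36 higher pairs of 43, chiefly of S100a8 and S100a9. The share over all pairs was the same 4.36%. S100pbp is not one of the 17 S100 genes, and S100a2 was not in the list. S100a3, S100a5, S100a7a and S100z stayed at 5.60 CPM or less in each type with at least 10 cells.

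The likeness of patterns was described by Pearson's r of log2(CPM + 10) over 46 units, each a type in 1 library with at least 20 cells, among 6191 genes that reached 100 CPM in some unit. Types of the same library share its depth and free RNA, so these values are given with no p. S100g went with the AT2 genes Egfl6, Pla2g1b and Bex2 (r of 0.96 each). S100a16 went with the endothelial genes Arhgap29 (0.90), Aqp1 (0.89) and Dock9 (0.88). S100a11 went with Anxa1 (0.86), Plp2 (0.78) and Anxa2 (0.77), and S100a6 with Anxa1 (0.80), Mir22hg (0.75) and S100a11 (0.74). S100a4 went with the leukocyte genes Sh3bp1 (0.81), Gpr132 (0.80) and Lsp1 (0.80), and S100a14 with Pof1b (0.92), Scnn1b (0.91) and Fgfbp1 (0.90). S100b went with P4ha3 (0.76), Wnt11 (0.71) and Wif1 (0.69), which follow its level in ductal myofibroblasts, since glial cells were too few to form a unit. S100a10 had Mbnl1 (0.83) as its nearest gene, S100a1 had Cyb5a (0.80) and S100a13 had Enpp4 (0.78). Among the members themselves, S100a6 and S100a11 had an r of 0.74, S100a13 and S100a16 of 0.64, and S100a1 and S100a13, the pair that starts back to back, of 0.55.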

How the data were processed

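The deposited values are raw UMI counts, whole numbers per gene and cell, which the authors made from 10X Genomics 3′ libraries and did not normalize; Cell Ranger was the counter and mm10 the reference. The submitters' processing notes name version 6.1.1 and the headers of the count files 5.0.0. The labels speak of sorted live cells and the methods of suspensions of whole lungs.

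Barcodes with fewer than 200 genes or more than 20% mitochondrial counts were left out, as in the study's methods, which kept 11487 of 11721 and 13238 of 13373. The libraries held 69200420 and 64697396 UMIs before this step. A cell joined 1 of 29 gates when at least 2 different gate markers with at least 3 UMIs reached 10% of the level in the 100 strongest cells, and was called mixed when markers of another lineage passed 50% of the leading one (308 and 1193 cells), or outside all gates (897 and 1881 cells). A name was kept when no other type had more markers than its own, gate markers included, among the leading genes by fold. The plasma cell gate failed this rule in the FF library and stayed unnamed. Markers not used by the gate were also looked at, and in arterial cells 2 of 4 of them were 2-fold higher in each library. Counts were summed per type and library. Levels have exact Poisson and shares exact Clopper-Pearson 95% intervals. Ratios have exact intervals from the binomial given the sum, with counts under 3 raised to 3. Shares were also computed after thinning each cell to 1000 UMIs. Doublets were not removed, apart from mixed cells. Scrublet's automatic threshold called 0 cells and so did not work, and the top 8% of scores (919 and 1059 cells) served as an alternative.

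The members and the lists of markers and partners were chosen with earlier results of these data known, and the exact form of the gates was settled after the data were seen. Named genes were all members, the partner genes of the lists and the 3 genes most like each member. Positions are those of GENCODE M21, and promoter windows those of RefSeq. The ratio script was tested on simulated data. Scripts ran in Python 3.11.15 with scipy 1.17.1, numpy 2.4.6, scanpy 1.11.5, pandas 2.3.3 and, for the plots, matplotlib 3.10.9.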

Additional observations from a re-analysis of the deposited data

How the results depend on the processing

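With 1 library per genotype nothing here has a replicate check, and levels of low members are limited by depth. No paired analysis was possible because each genotype was 1 library. The count of 18 higher pairs became 32 with the mean of each cell's CPM, 8 with only cells of at least 3000 UMIs, 9 with free RNA subtracted, 29 with a minimum of 10 UMIs and 10 with types of at least 50 cells in each library. The count of 6 lower pairs became 3 with free RNA subtracted, 10 with a minimum of 10 UMIs, 0 after thinning to 1000 UMIs and 3 when other lineages were held to 25% of the leading one, which was added once the data had been seen. The number of pairs counted changed with the setting too, for example to 93 with types of at least 50 cells in each library. The share of all genes past 2-fold is not given for these settings, so the counts are no result about the members. The cause of these moves was not tested. The ratio of S100g in airway secretory cells reversed to 0.84 without the cells scored highest by Scrublet. S100a6 in airway secretory cells was under 2-fold in 3 of 11 alternatives, its lowest ratio being 0.45. The mean of each cell's CPM brought S100a6 in interstitial macrophages to 0.99 and S100g in aerocyte capillary cells to -0.83, and subtraction of free RNA brought S100a4 in adventitial fibroblasts to 0.94 with CPM over the totals left after subtraction, or to 0.85 over the totals before it. The leading type changed under at least 1 alternative for S100a1, S100a6, S100a13, S100a14 and S100a16, while those of S100g, S100b, S100a4, S100a10 and S100a11 did not change under the alternatives run.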

Other observations

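Cells outside all gates had different leading genes by fold in the libraries. In the FF library these were heart muscle genes (Myl7, Myl4, Tnni3), and S100a1 stood at 238 CPM (217 to 261) in these 897 cells. In the KO library their leading genes were keratins and other squamous genes (Krt15, Krt5, Sprr1a), S100a1 stood at 115 CPM (104 to 126) in 1881 cells, and S100a6 at 905 CPM (876 to 936) against 359 CPM (333 to 387) in the FF library. Few of the KO cells carried the keratins (10 of 1881 had Krt5, Krt14 or Krt15), and 5 cells held 979 of the 3474 UMIs of S100a6. The 2 neutrophils of the FF library held 50 UMIs of S100a6 and 71 of S100a11 among 7767 UMIs, which is too little for a level.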
